A study of Mus musculus with 6 samples.

Results

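C1q-low myeloid cells were the cells that carried the authors' label Myeloid but next to no transcripts of complement C1q, whose A, B and C chains (*C1qa*, *C1qb* and *C1qc*) are abundant in tissue macrophages. They were selected on measured values: UMIs (unique molecular identifiers, each one counted transcript) of the 3 C1q genes together below 0.001 of the cell's UMIs, and fewer than 10 UMIs of *Mcpt4*, a mast cell protease. The rule took 1723 of 2680 Myeloid cells, or 64.3% (exact 95% binomial interval 62.4 to 66.1%), and 5.07% of all 33961 cells. Another 706 Myeloid cells passed the *Mcpt4* limit but not the C1q limit and are called C1q-high, and 251 cells were set aside for 10 or more *Mcpt4* UMIs. Because the rule used the counts of these cells, every comparison of the C1q-low with the C1q-high cells is a description, and no test is attached to it.

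The study used single-cell mRNA-seq on CD45+ bead-enriched leukocytes from CT26 tumors, a mouse colorectal carcinoma line grown under the skin of female wild-type Balb/c mice. The sample labels list 6 tumors, 2 each given vehicle, a low dose or a high dose (30 mg/kg) of a PD-1 GITR-L bispecific antibody. The low dose is 10 mg/kg in the protocol but 30 mg/kg in the sample field. For its single-cell experiment the paper names an isotype control, not vehicle, and a bispecific dose that differs from both. The table holds 4 libraries, M1, M2, M5 and M6, whose names match none of these labels. Which libraries share a treatment is therefore unknown, no treatment comparison was made, and the libraries are not treated as replicates of a condition. Values are given for each of the 4.

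The libraries gave 305 (M1), 336 (M2), 458 (M5) and 624 (M6) C1q-low cells. These were 52.7%, 56.5%, 67.8% and 75.2% of the Myeloid cells of those libraries, while the C1q-high cells numbered 213, 206, 146 and 141. The share was lowest in M1 and highest in M6, and no test of the libraries against each other was possible. Pooled, the cells were shallower than their C1q-high counterparts, with a median of 8178 against 13487 UMIs and 2380 against 3387 genes. In M2 they were not, with 7781.5 against 7312 UMIs and 2280.5 against 2121 genes. The summed UMIs of the C1q-low cells ran from 3966056 in M2 to 8912108 in M6. No C1q UMI at all was seen in 1065 of the C1q-low cells (61.8%). The 5 cells just inside the limit had 969 to 995 C1q UMIs per 1000000, and the 5 just outside had 1002 to 1014. Cell barcodes occurring in more than 1 library numbered 111, of which 10 belonged to C1q-low cells, and no barcode was shared within the class.

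As background, circulating classical monocytes carry the surface protein Ly6C, enter tumors through the receptor CCR2 and there turn into macrophages, which switch on C1q, scavenger receptors and lysosomal enzymes. Neutrophils, the other phagocytes that arrive from blood, carry the calcium-binding proteins S100A8 and S100A9 and the receptors for G-CSF and CXCR2 ligands. Both kinds of newly arrived cell are known sources of interleukin 1 and of CXC chemokines. The rule above leaves them together, since neither makes much C1q.

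The 4 genes proposed as markers of these cells were *Ly6c2*, which encodes Ly6C (chr15:75108158-75111970, GRCm38), *Plaur*, the urokinase receptor (chr7:24462484-24475968), *S100a8* (chr3:90668978-90670035) and *Il1b*, interleukin 1β (chr2:129364570-129371139). Levels are given as CPM, the UMIs of a gene per 1000000 UMIs summed over the cells of a class in a library, and differences as log2 ratios of CPM + 1. Pooled values sum the cells of all libraries, and since the classes differ in how many cells each library gave, a pooled ratio can lie outside the range of the libraries, as for *Cxcl2* (log2 ratio 1.52 pooled, 1.29 to 1.47 by library). *Il1b* stood at 4473, 6022, 6156 and 7079 CPM in the C1q-low cells of M1, M2, M5 and M6, in that order throughout, and at 1488, 1605, 1564 and 2382 CPM in the C1q-high cells. *Plaur* stood at 450.1, 558, 689 and 828 CPM against 192, 256, 226 and 337 CPM. All 4 C1q-low values lay above all 4 C1q-high values for both genes, and the pooled ratio was 3.50-fold for *Il1b* and 2.68-fold for *Plaur*.

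*Ly6c2* was at 451, 612, 671 and 398 CPM in C1q-low and 139, 139, 262 and 187 CPM in C1q-high cells, a pooled ratio of 2.87-fold, with the least difference in M6. *S100a8* was at 343, 466, 515 and 680.1 against 151, 284, 101 and 271 CPM, and here the pooled 2.67-fold ratio hid a spread of the log2 ratio from 0.71 in M2 to 2.33 in M5. Both classes again did not overlap, but *S100a8* was the only one of the 4 markers that missed 2-fold in a library. The *Ly6c2* transcript is nearly identical to that of its neighbor *Ly6c1*, and reads that fit both were not resolved here. Cells with 2 or more T, NK, B or stromal cell UMIs among 2000 drawn, or fewer than 2000 UMIs, were then left out. This left 939 C1q-low and 281 C1q-high cells. The log2 ratio rose from 1.52 to 2.33 for *Ly6c2* and from 1.81 to 2.13 for *Il1b*. That of *S100a8* went from 1.42 to 1.35, with its lowest library at 0.12.

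**Figure D1:**
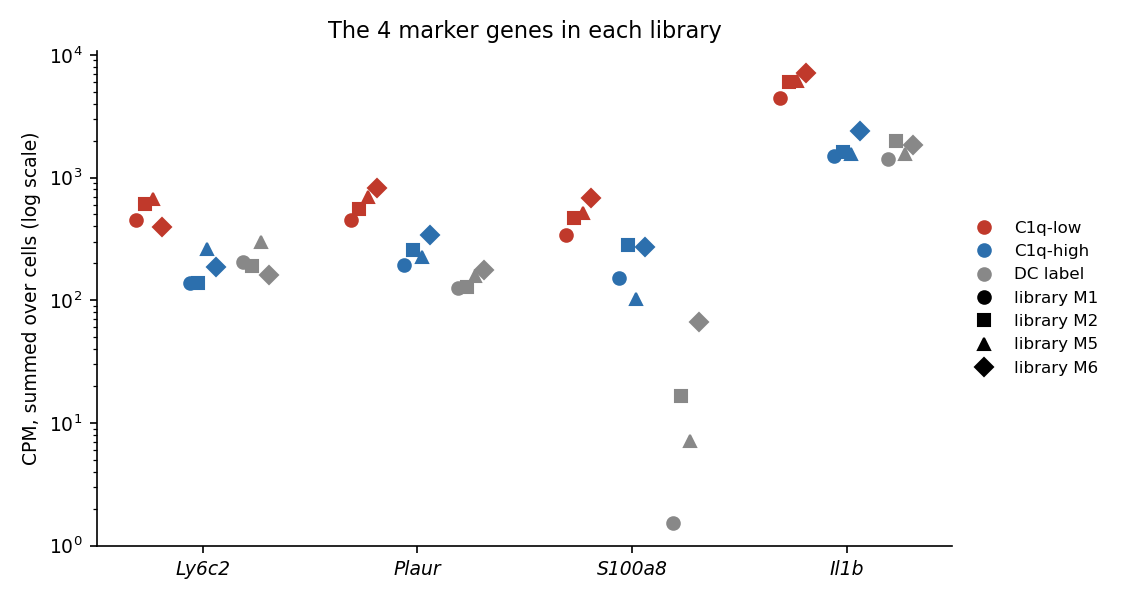
CPM of the 4 marker genes (log axis) in C1q-low cells (red), C1q-high cells (blue) and cells labelled DC (grey), each symbol shape being 1 of the 4 libraries. The 4 red symbols lie above the 4 blue ones for each gene, and *S100a8* in the DC label ranges from 1.52 to 66.9 CPM.

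To count cells rather than UMIs, each cell was thinned to 2000 UMIs, which left 1656 C1q-low and 646 C1q-high cells. At this depth *Il1b* was found in 83.8% of C1q-low cells (interval 81.9 to 85.5%), 51.4% of C1q-high cells and 6.97% of cells labelled T cell EFF, which give the background. Without thinning the shares of *Il1b* were 88.7%, 63.0% and 18.4%. *Plaur* was found in 66.5%, 34.8% and 5.16%, so that for both genes the C1q-low share stood well clear of that background. Only counting error is covered by the intervals, and the median depths before thinning were 8178, 13487 and 10049 UMIs in the 3 classes.

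*S100a8* was found in 23.1% of C1q-low cells (21.1 to 25.2%) and 84 of 646 C1q-high cells, against 1.27% of T cell EFF. *Ly6c2* was found in 39.8% of C1q-low and 18.0% of C1q-high cells. Effector T cells also express *Ly6c2* and had a UMI in 40.5% of cells. By library the shares were 44.4%, 46.4%, 45.2% and 30.1% in C1q-low cells against 27.7%, 43.5%, 50.5% and 36.3% in T cell EFF, with no common direction. As a marker *Ly6c2* thus separated the C1q classes, but did not set the cells apart from T cells in the same direction in each library. Of the 1656 thinned cells, 611 carried 3 of the 4 markers and 55 carried all 4, while 111 carried none. In C1q-high cells 76 of 646 carried 3 and 4 carried all 4, and in the DC label 12 and 2 of 539 did. All 4 thus seldom met in a single cell at this depth, and 281 members carried only 1.

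Over the 7753 genes with at least 10 CPM in the classes pooled, 63 (0.813%) were at least 2-fold higher and 46 (0.593%) at least 2-fold lower in C1q-low cells in each of the 4 libraries. A gene could pass the 10 CPM limit through 1 class alone, and more readily through C1q-low cells, which gave 22567898 UMIs against 13861367. The lower genes include *C1qa*, *C1qb* and *C1qc*, whose direction the selection fixed. By the looser criterion of the same sign in each library, 1578 genes (20.4%) were higher and 2162 (27.9%) lower, and the median log2 ratio over all genes was -0.06. The 2-fold count of higher genes rose to 98 without M6, where 3 libraries had to pass instead of 4. It rose to 102 without cells that held 2 or more T, NK, B or stromal cell UMIs or were too shallow to thin. With each cell weighted equally it rose to 123, and with a pseudocount of 10 it fell to 38. The count of lower genes went to 29 with that pseudocount, 79 with equal weights and 78 with no limit on low levels. These shares are the background for the gene lists below. Some called list members were below 10 CPM in C1q-high cells and passed through C1q-low cells alone. They include *Chil3* (22.6 against 1.01 CPM pooled), *Ace* (16.2 against 1.88), *Cxcr2* (19.4 against 6.13) and *Cd209a* (25.3 against 7.21). *Xcr1*, lower in each library at 6.29 against 13.9 CPM pooled, did not pass. Where the classes are said not to overlap for a gene, the share of all genes that did so was not counted. The 15 genes named in each direction were those with the largest difference in the library where it was least. They were taken among genes of at least 50 CPM in the class where the gene was higher.

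Higher by this ranking were *Dmkn*, *Ctsk*, *Il6*, *Hp*, *Inhba*, *Thbs1*, *Mcemp1*, *Vcan*, *Cxcl3*, *F10*, *Il1b*, *Mefv*, *Gpr141*, *Ifitm6* and *Il1r2*. Several encode secreted proteins. *Il6* encodes interleukin 6, *Inhba* the activin A subunit, *Cxcl3* a neutrophil-attracting chemokine, *Thbs1* thrombospondin 1, *Vcan* the proteoglycan versican, *Hp* haptoglobin and *F10* coagulation factor X. *Il1r2* encodes the decoy receptor of interleukin 1, and *Mefv* encodes pyrin, which assembles an inflammasome.

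*Inhba* stood at 281, 629, 675 and 1204 CPM in C1q-low and 55.0, 153, 166 and 348 CPM in C1q-high cells. Its lowest C1q-low value, in M1, was below the highest C1q-high value, in M6, so that the classes differed within each library while their ranges overlapped. *Thbs1* was at 478, 649, 488 and 377 against 60.3, 96.9, 63.1 and 112 CPM with no overlap, a pooled 5.62-fold ratio. *Cxcl3* was at 267, 281, 319.5 and 665 against 64.6, 65.0, 99.4 and 112 CPM, highest in M6 and 5.14-fold higher pooled. *Il6* was at 24.8, 35.6, 94.1 and 81.9 against 2.51, 8.29, 12.9 and 16.7 CPM, the lowest ratio being in M2. A UMI of these genes was not seen in every member. After thinning *Inhba* was seen in 36.1%, *Thbs1* in 28.3%, *Cxcl3* in 21.0% and *Il6* in 8.15% of C1q-low cells. The shares, in that order, were 12.2%, 9.29%, 6.50% and 1.24% in C1q-high cells and 1.61%, 0.931%, 1.07% and 0.226% in T cell EFF. Without thinning the C1q-low shares were 50.5%, 42.1%, 29.5% and 15.9%, so they depend on depth.

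*Hp* was at 62.4, 65.1, 62.6 and 70.5 CPM in C1q-low and 8.04, 13.4, 6.27 and 18.8 CPM in C1q-high cells, almost level across libraries on the C1q-low side. *Vcan* was at 53.6, 47.2, 70.2 and 45.2 against 8.54, 13.7, 13.9 and 13.2 CPM and *F10* at 157, 183, 236 and 243 against 15.1, 39.2, 45.9 and 75.9 CPM. The UMIs of several of these genes came from few cells. The 10 cells richest in *Ctsk*, which encodes the collagen-cleaving protease cathepsin K, held 91.0% of its 5524 UMIs, and its level ran from 16.4 CPM in M2 to 435 CPM in M6. For *Dmkn*, the gene of dermokine, the richest 86 cells (5% of the class) held 79.8% of the UMIs. The same number of cells held 76.0% for *Il6*, 67.7% for *Cxcl3*, 59.6% for *Vcan*, 58.2% for *S100a8*, 30.9% for *Ly6c2*, 21.7% for *Il1b* and 20.5% for *Plaur*. The other genes named stood higher by pooled ratios of 4.27-fold (*Mcemp1*), 3.34-fold (*Mefv*), 3.08-fold (*Gpr141*), 3.73-fold (*Ifitm6*) and 3.02-fold (*Il1r2*).

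**Figure D2:**
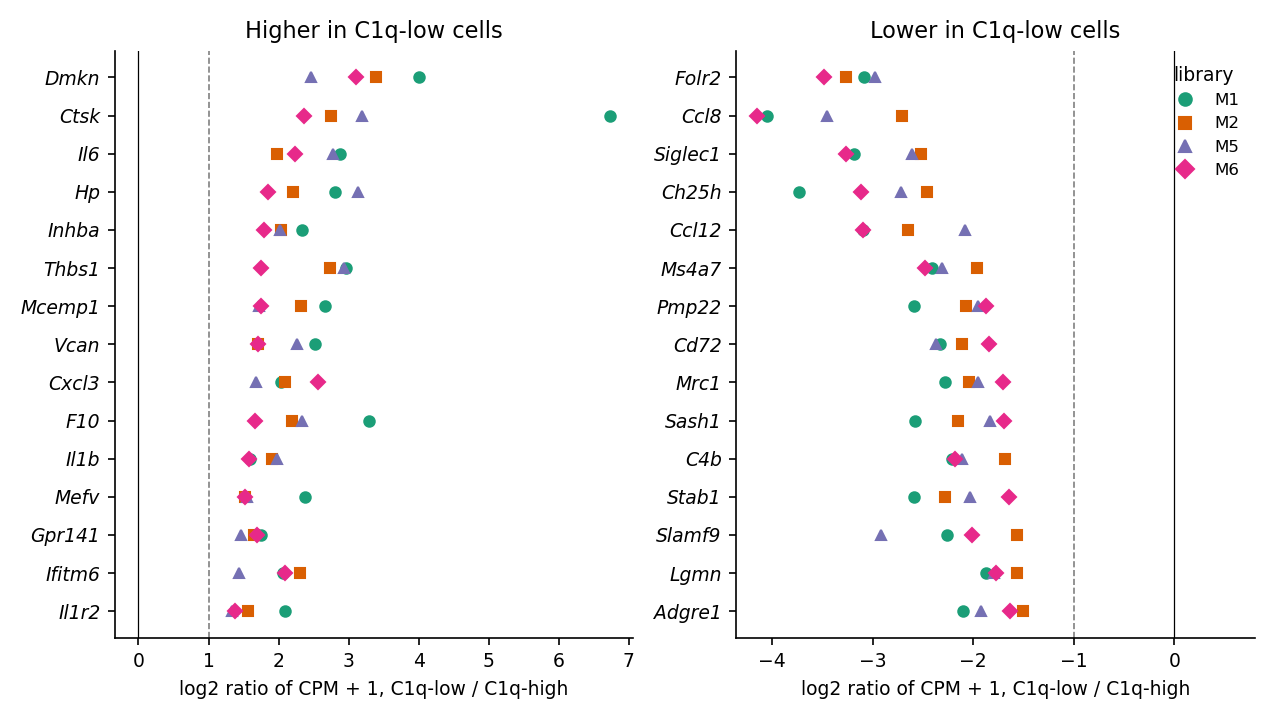
Log2 ratio of CPM + 1 between C1q-low and C1q-high cells in each library (symbols) for the 15 genes named as higher (left) and the 15 named as lower (right); the dashed line marks 2-fold. *Ctsk* in M1 reaches 6.73 while its other libraries lie between 2.36 and 3.19, and *Folr2* stays between -3.49 and -2.98.

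Lower in C1q-low cells were *Folr2*, *Ccl8*, *Siglec1*, *Ch25h*, *Ccl12*, *Ms4a7*, *Pmp22*, *Cd72*, *Mrc1*, *Sash1*, *C4b*, *Stab1*, *Slamf9*, *Lgmn* and *Adgre1*. *Mrc1* (CD206), *Stab1* (stabilin-1) and *Siglec1* (CD169) encode endocytic or adhesion receptors of resident macrophages, *Folr2* a folate receptor, and *Adgre1* the macrophage antigen F4/80. *Folr2* was at 13.5, 10.3, 19.8 and 7.74 CPM in C1q-low and 123, 108, 163 and 97.1 CPM in C1q-high cells, 9.22-fold lower pooled with no overlap. *Ccl8*, a monocyte-attracting chemokine, was at 80.4, 268, 479 and 141 against 1350.3, 1762, 5268 and 2521 CPM, and *Ms4a7* was at 71.9, 107, 138 and 77.6 against 386, 420.3, 684 and 436 CPM. The C1q-low level of *Adgre1* was not zero, at 41.3, 60.3, 73.3 and 50.4 CPM against 181, 173, 282 and 158 CPM. That of *Mrc1* was 59.4, 54.0, 67.4 and 41.2 CPM against 292, 226, 264 and 136 CPM, so these receptors were lower but still present. The remaining genes were lower by pooled ratios that ran from 3.43-fold for *Lgmn*, a lysosomal protease, to 8.35-fold for *Ch25h*, the cholesterol 25-hydroxylase, with *Siglec1* at 7.76-fold and *C4b* (complement C4) at 4.17-fold.

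Upstream sequence is shown for 3 of the higher genes, *Il6*, *Cxcl3* and *Inhba*, which were picked because their windows held letters of 2 motifs of inflammatory transcription factors. These were a κB motif of NF-κB (GGGANNNNCC) and a C/EBP motif (TTGCNNAA), searched on both strands. The sequences are the 250 bases before the start site from RefSeq (GRCm38.p6, plus strand), 5′ to 3′, and motif matches are in capitals. The *Il6* window is chr5:30012864-30013113, that of *Cxcl3* is chr5:90785851-90786100 and that of *Inhba* is chr13:16011601-16011850.
*Il6*: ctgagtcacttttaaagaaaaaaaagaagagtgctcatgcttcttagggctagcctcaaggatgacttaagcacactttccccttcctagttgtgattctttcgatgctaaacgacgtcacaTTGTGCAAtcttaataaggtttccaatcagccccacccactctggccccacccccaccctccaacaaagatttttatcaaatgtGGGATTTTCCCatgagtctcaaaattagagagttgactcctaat
*Cxcl3*: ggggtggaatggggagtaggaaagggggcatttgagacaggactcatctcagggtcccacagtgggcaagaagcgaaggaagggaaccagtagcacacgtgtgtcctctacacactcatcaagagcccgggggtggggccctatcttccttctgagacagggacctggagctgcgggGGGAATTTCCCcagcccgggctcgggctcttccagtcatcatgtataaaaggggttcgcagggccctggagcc
*Inhba*: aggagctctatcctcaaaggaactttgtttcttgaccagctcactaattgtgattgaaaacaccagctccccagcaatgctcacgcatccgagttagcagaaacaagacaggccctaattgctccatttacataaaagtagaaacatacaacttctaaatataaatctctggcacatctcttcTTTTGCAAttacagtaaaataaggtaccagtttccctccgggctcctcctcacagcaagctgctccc
In *Il6* the C/EBP letters lay at bases 123 to 130 and the κB letters at 207 to 217, where 2 overlapping matches run into each other, counted from the 5′ end with the start site at base 251. In *Cxcl3* the κB letters lay at 178 to 188, and in *Inhba* the C/EBP letters at 184 to 191. Windows were found for 13 of the 15 higher and 12 of the 15 lower genes. The κB letters were in windows of 4 of the 13 (*Cxcl3*, *Dmkn*, *F10* and *Il6*) and 4 of the 12 (*Ch25h*, *Lgmn*, *Mrc1* and *Pmp22*), against 19.7% of all 27025 genes with a window and 17.6% of all 32851 windows, since a gene can have several. The C/EBP letters were in windows of 4 of the 13 (*Ctsk*, *Dmkn*, *Il6* and *Inhba*) and 1 of the 12 (*Ch25h*), against 10.8% of all genes and 9.56% of all windows. A match is a description of these letters and no evidence of binding.

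By cell type markers, the C1q-low cells held transcripts of monocytes and of neutrophils and less of those of macrophages. Of the 11 genes of a classical monocyte list all passed the 10 CPM limit, 5 were 2-fold higher in each library (*Ly6c2*, *Chil3*, *Vcan*, *Hp* and *Ifitm6*), 9 were higher in each, and none was lower, with a median log2 ratio of 0.95 against -0.06 over all genes. The most abundant of them, *Plac8*, was at 1196, 1338, 1482 and 1034 CPM against 713, 650.4, 634 and 538 CPM. *Ccr2*, the receptor that draws monocytes into tissue, was at 291, 284, 256 and 217 against 248, 214, 176 and 156 CPM, higher within each library but by a log2 ratio of 0.23 to 0.54 only. Of 6 nonclassical monocyte genes that passed, 1 was 2-fold higher in each library, *Ace* (angiotensin-converting enzyme), at 10.8, 20.4, 18.4 and 15.4 against 1.76, 1.91, 2.31 and 1.61 CPM, while 3 were higher in each and 3 had no common sign. *Ace*, like *Chil3* above, passed the 10 CPM limit only through the C1q-low cells. Among the genes with no common sign were *Cx3cr1* and *Spn*. *Cx3cr1*, the fractalkine receptor that marks these monocytes, had a pooled log2 ratio of -2.10 and a range from -2.71 to 0.05 over the libraries. *Spn* (CD43) was at 50.1 against 63.8 CPM pooled.

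Of 13 neutrophil genes 12 passed, and 3 were 2-fold higher in each library (*Cxcr2*, *Il1r2* and *Hdc*). All 12 were higher in each library, and the median log2 ratio was 1.56. Among the 12, *Cxcr2*, *Retnlg*, *Mmp8* and *Stfa2l1* were below 10 CPM in C1q-high cells, at 6.13, 6.49, 7.86 and 7.29 CPM pooled. They passed through the C1q-low cells alone, which favored a higher value there. The most abundant was *S100a9*, at 778, 1029, 1116 and 1683 CPM in C1q-low and 324, 619, 209 and 565 CPM in C1q-high cells, with the highest value in M6. *G0s2*, the inhibitor of triglyceride lipase, was at 143, 255, 228 and 498 against 55.8, 157, 75.6 and 164 CPM, and *Csf3r*, the G-CSF receptor, at 36.3, 57.7, 66.0 and 78.3 against 23.6, 34.4, 50.2 and 43.6 CPM. The list summed to 1936 to 4031 CPM over the libraries against 738 to 1613 CPM. Some of its members are not particular to neutrophils in these data. *Hdc* was at 160 CPM pooled in C1q-low cells but at 1488 CPM in the cells set aside for *Mcpt4*. *Il1r2* was at 123 CPM pooled against 181 CPM in the DC label. The gene that did not pass was *Ly6g*, which defines mouse neutrophils by antibody: it had a UMI in 0.604% of thinned C1q-low cells (0.29 to 1.11%), against 0.0282% of T cell EFF.

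Macrophage genes went the other way, with 14 of 15 passing, 6 of them 2-fold lower in each library (*Trem2*, *Ms4a7*, *Mrc1*, *Adgre1*, *Folr2* and *Selenop*), 11 lower in each and a median log2 ratio of -1.21. *Apoe*, the lipid carrier, was at 789, 610.4, 1044 and 490.2 CPM against 1567, 1793, 2113 and 972 CPM. Not every macrophage gene differed in 1 direction: *Fcgr1*, the Fc receptor CD64, was at 327, 386, 396 and 249 against 354, 332, 418 and 310.0 CPM. One gene of the list was higher in each library, *Gpnmb*, at 11.5, 20.9, 16.7 and 22.2 against 1.76, 10.5, 5.28 and 9.42 CPM. After thinning, 69.7% of C1q-low cells carried 2 or more UMIs of the list, against 93.2% of C1q-high cells, 13.7% of the DC label and 4.88% of T cell EFF.

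Lysosomal and lipid-handling genes were lower too. Of 14 genes, all passing, 2 were 2-fold lower in each library (*Lgmn* and *Grn*), 10 were lower in each and none higher. *Ctsb*, the protease cathepsin B, was at 814, 1227, 1483 and 1125 CPM in C1q-low and 1909.9, 2092, 2982 and 2261 CPM in C1q-high cells. *Psap*, the prosaposin gene, was at 1224, 1826, 2352 and 2341 against 1958, 2382, 3669.5 and 3121 CPM, and *Ctsl*, the most abundant protease here, at 1433, 2328, 2474 and 2387 against 1189, 1561, 3637 and 3121 CPM. *Ctsl* was thus higher in C1q-low cells of M1 and M2 and lower in those of M5 and M6. Lysozyme, *Lyz2*, and the integrin *Itgam* (CD11b), which mark all of these phagocytes, were nearly level, at 6524 against 7515 and 268 against 262 CPM pooled.

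Among interleukin 1 genes, 10 of 12 passed, 2 were 2-fold higher in each library (*Il1b* and *Il1r2*), 8 were higher and 1 lower in each, with a median log2 ratio of 0.98. *Il1a*, interleukin 1α, was at 215, 380.5, 511 and 679 CPM against 109, 114, 137 and 240.3 CPM and *Il1rn*, the receptor antagonist, at 304, 617, 641 and 715 against 188, 329, 337 and 351 CPM. Agonists and both natural inhibitors, antagonist and decoy receptor, were therefore higher together. *Nlrp3*, the inflammasome sensor that leads to the cleavage of pro-interleukin 1β, was at 317, 445, 569 and 603 against 192, 224, 262 and 306 CPM. *Casp1*, which makes the cut, was at 79.4, 79.9, 79.7 and 70.8 against 72.9, 81.9, 104 and 104 CPM, with no common direction.

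Inflammatory cytokines and NF-κB targets showed 5 of 18 genes 2-fold higher in each library (*Il6*, *Osm*, *Ptgs2*, *Clec4e* and *Trem1*), 14 higher in each and none lower. *Ptgs2*, cyclooxygenase 2, was at 912, 1137, 1235 and 1414 CPM against 274, 370.3, 485 and 581 CPM without overlap. *Nfkbia*, the feedback inhibitor IκBα and the most abundant of the list, was at 1584, 2243, 2046 and 2398 against 941, 1125, 991 and 1292 CPM. *Tnf* was at 173, 273, 546 and 512 against 212, 246, 227 and 321 CPM: it was lower than in C1q-high cells in M1 and higher in the other libraries. *Il10*, the anti-inflammatory cytokine of the list, was at 9.52, 10.8, 13.7 and 12.1 against 10.3, 19.4, 11.2 and 9.69 CPM. Among 17 of 20 myeloid transcription factors that passed, none reached 2-fold in each library, and *Cebpb* (C/EBPβ), the most abundant, came nearest at 1659, 2263, 2134 and 2387 against 847, 1179.7, 1025 and 1263 CPM.

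Chemokine genes went both ways. Of 17 genes 16 passed: *Cxcl2*, *Cxcl3* and *Ccl24* were 2-fold higher in each library and *Ccl7*, *Ccl8* and *Ccl12* 2-fold lower, while 8 were higher and 6 lower in each. *Cxcl2*, a ligand of CXCR2, was at 4566, 6059, 8199 and 10253 CPM against 1861, 2370.0, 2965 and 3966 CPM, all C1q-low values being above all C1q-high values. *Cxcl1*, which uses the same receptor, was at 1187, 1471, 1207 and 1517 against 506, 709, 496 and 864 CPM. The CCR2 ligands stood the other way, *Ccl7* at 531, 575, 493 and 319 against 2258, 1623, 1459 and 1301 CPM and *Ccl2* at 1318, 1353, 890.3 and 868 against 2570.3, 2329, 1427 and 1693 CPM. *Ccl7*, *Ccl8* and *Ccl12* are neighboring genes of similar sequence, and reads that fit several of them were not resolved here. *Cxcl9*, an attractant of T cells through CXCR3, was at 416, 458, 400.1 and 362 against 587, 729, 645 and 694 CPM, and *Cxcl10*, which shares the receptor, at 919, 748, 993 and 826 against 726, 521, 579.9 and 522 CPM, so that these ligands moved apart. Of 9 chemokine receptor genes, 1 was 2-fold higher in each library (*Cxcr2*) and 6 were higher in each.

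In the plasminogen system 10 of 11 genes passed, and the receptor and its ligand moved apart. *Plau*, urokinase itself, was at 89.2, 115, 97.6 and 111 CPM in C1q-low and 341, 348, 238 and 251 CPM in C1q-high cells, 2-fold lower in each library, where *Plaur* and *Thbs1* were 2-fold higher. *Serpinb2*, an inhibitor of urokinase, was at 18.0, 19.2, 31.9 and 68.3 against 2.76, 0.637, 15.9 and 14.8 CPM. Of 7 S100 genes none was 2-fold higher in each library and 5 were higher in each, the most abundant being *S100a6* at 3460.3, 3049, 2289 and 1991 against 1973, 1918, 1758 and 1828 CPM. Of 11 matrix genes 1 was 2-fold lower in each library, the protease inhibitor *Timp2*, at 109, 89.0, 66.3 and 90.1 against 224, 215, 271 and 231 CPM.

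Other functional lists differed less. Of 11 genes tied to suppression of T cells, 1 was 2-fold higher in each library, *Arg2* at 232, 283, 413 and 416 against 75.4, 116, 200.1 and 206 CPM. *Arg1*, the cytosolic arginase, was at 251, 386, 404 and 773 against 487, 792, 567 and 787 CPM, lower in each library though barely so in M6, and *Cd274*, the ligand PD-L1 of the receptor that the bispecific binds, was at 216, 327, 539 and 582 against 133, 217, 314 and 338 CPM, higher in each. None of 19 hypoxia and glycolysis genes reached 2-fold in each library, with 8 higher and 1 lower in each, and *Vegfa* was at 246, 408, 297 and 435 against 112, 206, 151 and 258 CPM. None of 16 interferon-stimulated genes did so either, with 7 higher and 1 lower in each. Of 7 MHC class II genes 6 were higher in each library and none was lower, and *Cd74*, the invariant chain, was at 3994, 4843, 5077 and 5004 against 2979, 4225, 4600.2 and 4179.5 CPM. None of 11 complement and Fc receptor genes was 2-fold different in each library, with 5 lower in each. Of 12 proliferation genes none was 2-fold lower in each library and 10 were lower in each, and 9.90% of thinned C1q-low cells carried 2 or more UMIs of that list against 29.7% of C1q-high cells.

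**Figure D3:**
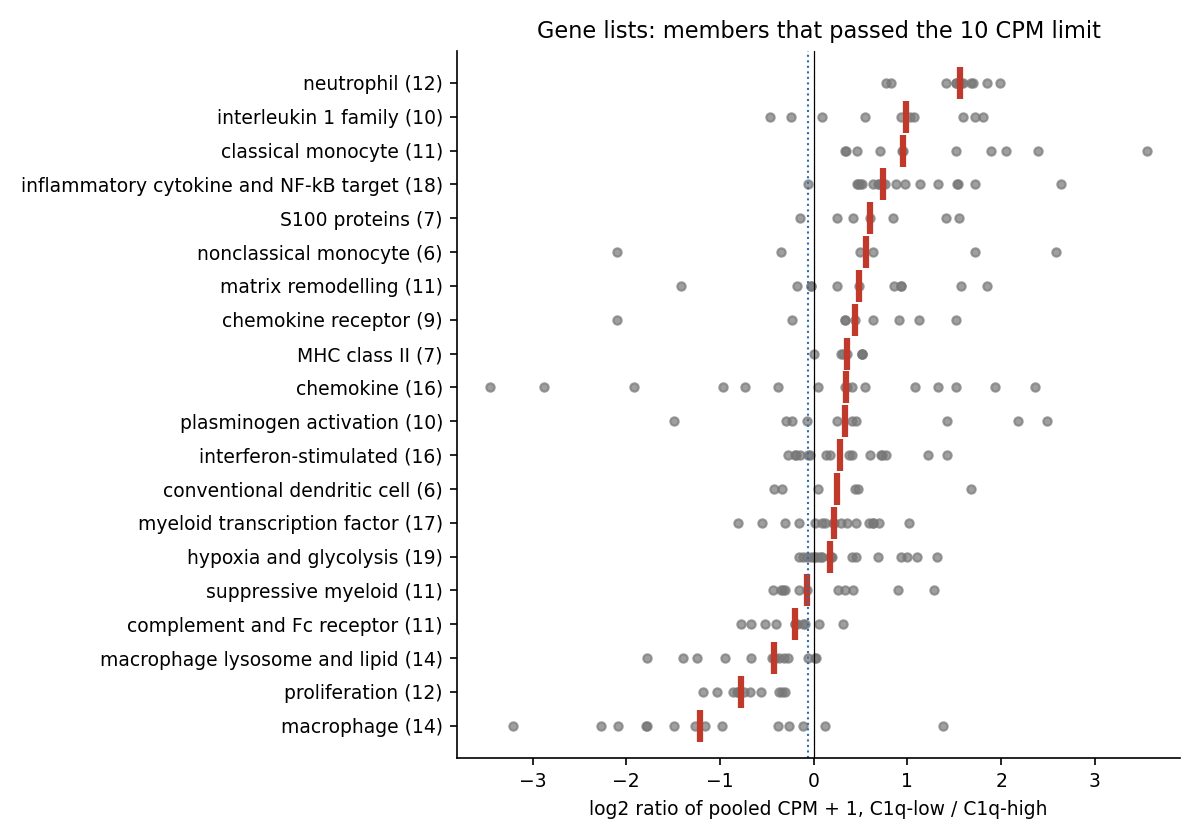
Log2 ratio of pooled CPM + 1 between C1q-low and C1q-high cells for each member (grey points) of the gene lists, with the number that passed 10 CPM in brackets and the list's median as a red bar; the dotted line is the median over all 7753 genes, -0.06. Marker lists of other cells and lists with fewer than 5 genes passing are not drawn, and the medians drawn run from -1.21 for macrophage genes to 1.56 for neutrophil genes.

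*S100a8* and *S100a9* on the one hand and *Ly6c2* on the other were seen together in few cells. The longer lists did not part in this way. Of 855 thinned cells with 2 or more UMIs of the neutrophil list, 72.2% also had 2 or more of the monocyte list. That compares with 75.1% of all members. The monocyte list was also found in 62.4% of T cell EFF, and *Ly6c2* in 40.5% of them, so neither marks monocytes alone. Among the 1656 thinned C1q-low cells, 359 (21.7%) had a UMI of *S100a8* or *S100a9* and none of *Ly6c2*, 557 (33.6%) had *Ly6c2* only, 102 (6.16%) had both and 638 (38.5%) had neither. *Ly6c2* was seen in 19.3% of *S100a8*-positive cells, against 39.8% of all members. The split was chosen after the values were seen, and only genes it did not use are described. The S100 cells were the shallower ones, with a median of 4391 UMIs against 9982 in the *Ly6c2* cells, and its part in the differences was not tested.

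*Cxcr2*, the receptor by which neutrophils follow CXC chemokines, was at 53.7, 78.3, 66.7 and 108 CPM in the S100 cells of the 4 libraries and at 0, 0, 0.408 and 1.52 CPM in the *Ly6c2* cells. *G0s2* was at 1118, 1490.0, 1180.2 and 2159.9 against 7.33, 30.3, 3.27 and 16.8 CPM and *Csf3r* at 123, 159, 178 and 222 against 30.1, 39.1, 41.7 and 40.4 CPM. These neutrophil genes did not overlap between the sets in any pair of libraries. The share of all genes with no overlap was not counted. *Clec4d* of the neutrophil list did overlap, at 412, 534, 790 and 787 against 298, 356, 419 and 369 CPM, while higher within each library. *Ms4a4c*, a monocyte gene, ran the opposite way, with 138, 116, 125 and 134 CPM in the S100 cells and 791, 654, 667 and 434 CPM in the *Ly6c2* cells. *Ccr2* was at 136, 126, 112 and 108 against 454, 381, 336 and 307 CPM, and *Fcgr1* at 138, 202, 181 and 172 against 549.9, 532, 537 and 337 CPM. Not all genes of the lists followed this order. *Hp*, of the monocyte list, was at 118, 123, 101 and 112 CPM in the S100 cells and 96.0, 79.3, 67.0 and 101 CPM in the *Ly6c2* cells, higher in the S100 cells of each library. *Mmp9*, a gelatinase of the neutrophil list, did follow the order, at 58.9, 59.3, 78.4 and 177 CPM in the S100 cells. In the *Ly6c2* cells *Mmp9* reached at most 19.8 CPM, in M6, so that these sets did not overlap. The cells with neither marker held 138, 34.0, 262 and 301 CPM of *Mmp9*, less than the S100 cells in M2 only. Of all *Mmp9* UMIs in the class, 10 cells held 65.9%. Cells with both kinds of marker lay between the sets for *Cxcr2*, *G0s2*, *Csf3r*, *Ms4a4c*, *Ccr2* and *Fcgr1* when pooled, for example 56.2 CPM of *Cxcr2* and 306 CPM of *Ccr2*. This did not hold in each library. In M1 the cells with both, 15 in number, held 134 CPM of *Cxcr2*, above the 53.7 CPM of the S100 cells.

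Cytokine genes were shared but unequally. *Il1b* was at 4481, 8181, 7854 and 11785 CPM in the S100 cells and 5752, 5549.8, 5745 and 6698 CPM in the *Ly6c2* cells, lower in the S100 cells of M1 and higher in the others. *Cxcl2* was at 6595, 8788, 15302 and 18616 against 6053, 4950.3, 6128 and 8192 CPM, higher in the S100 cells of each library, and *Ccl3* at 1144, 871, 3600.4 and 5075 against 349, 339, 796 and 589 CPM. *Inhba* showed no such order, at 305, 1091, 662 and 963 against 353, 457, 497 and 1173 CPM. *Thbs1* was at 732, 479, 299.7 and 278 against 761, 754, 633 and 637 CPM, lower in the S100 cells of each library. The cells with neither marker after thinning still held 3434, 5493, 5036 and 5201 CPM of *Il1b*. Their *Inhba* was at 226, 652, 817 and 1404 CPM. Without thinning these cells did hold the markers, at 167 CPM of *Ly6c2* and 34.7 CPM of *S100a8* pooled. The S100 cells held 125 CPM of *Ly6c2* and the *Ly6c2* cells 28.0 CPM of *S100a8*. *Il1b* and *Inhba* were thus present in cells without either marker among the thinned UMIs, which are not cells free of the markers.

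The S100-only cells made up 12.1%, 13.4%, 20.9% and 31.4% of the thinned C1q-low cells of M1, M2, M5 and M6, and the *Ly6c2*-only cells 39.4%, 41.7%, 36.9% and 24.1%. The S100-only share was thus largest in M6, where the *Ly6c2*-only share was smallest. *Cxcl2* was highest in M6 within the S100-only cells and also within the *Ly6c2*-only cells and those with neither, at 2761, 6147, 6624 and 8026 CPM in the latter, but lowest in M6 within the cells with both, at 11179, 10789, 11312 and 9665 CPM. Whether the treatment differed between these libraries cannot be told from the labels.

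**Figure D4:**
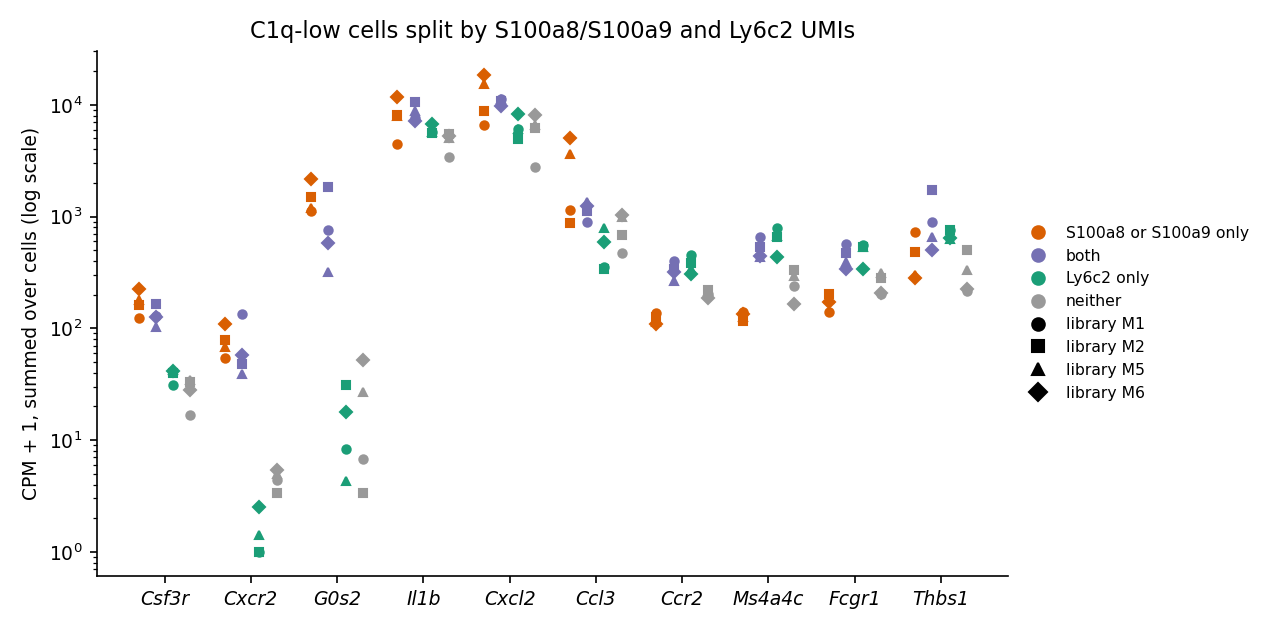
CPM + 1 (log axis) of 10 genes in C1q-low cells split by UMIs of *S100a8* or *S100a9* and of *Ly6c2* after thinning to 2000 UMIs (colors), each symbol being 1 library. *Cxcr2* and *G0s2* separate the orange from the green symbols widely, *Ccr2*, *Ms4a4c* and *Fcgr1* are higher in green, and the orange *Il1b* symbols range from 4481 to 11785 CPM, across the green ones.

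Levels of other genes differed along the C1q content of the cells. From cells with no C1q UMI (1065 cells) to those with 8000 or more C1q UMIs per 1000000 (239 cells), *Il1b* went from 7472 to 675 CPM, *Cxcl2* from 9357 to 1261 CPM and *Ly6c2* from 604 to 84.6 CPM. *Folr2* went from 7.86 to 224 CPM and *Ccl8* from 209 to 4401 CPM. Within the class the order was not even: over its 4 bins of rising C1q *Il1b* was at 7472, 4752, 6069 and 4981 CPM and *S100a8* at 659, 290.3, 1001 and 589 CPM. *Csf1r*, the receptor of the macrophage growth factor, stayed between 121 and 214 CPM. In the 101 cells just below the limit (500 to 1000 per 1000000) *Il1b* was at 4981 CPM, and in the 120 just above it (1000 to 2000) at 3001 CPM. The median depth of the bins ran from 3864 to 16121 UMIs. The libraries were mixed unequally, M6 giving 393 cells of the first bin and 30 of the last, and M1 188 and 91. The part of depth and of this mix in the gradient was not tested.

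**Figure D5:**
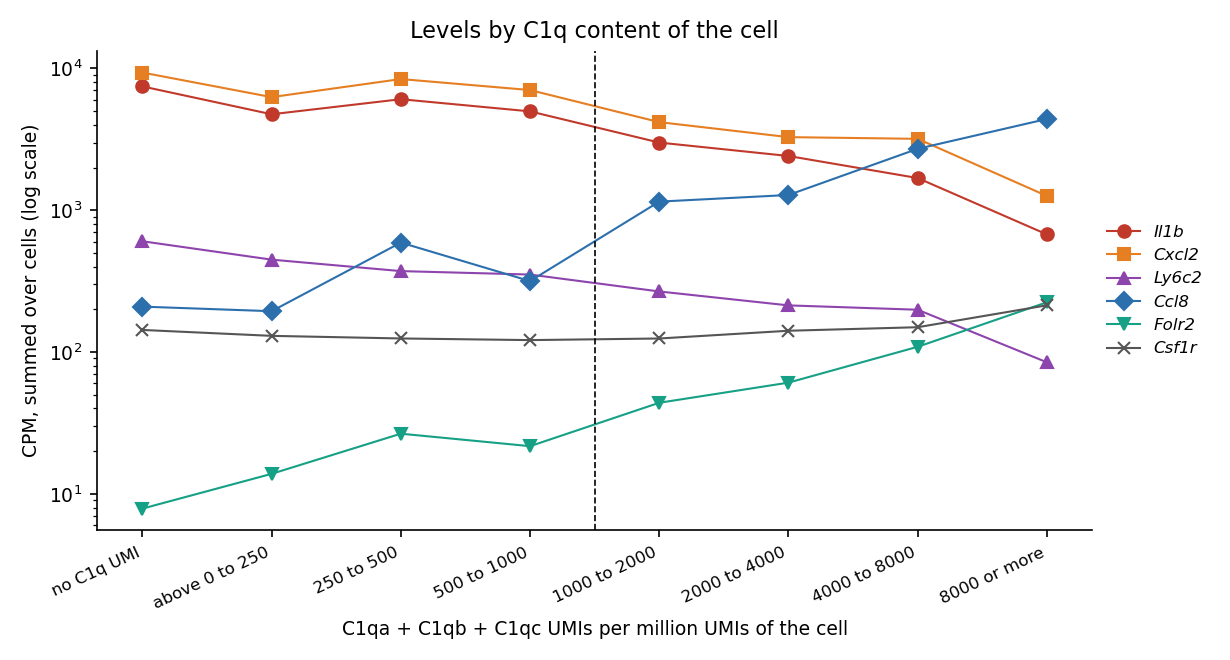
CPM (log axis) of 6 genes in Myeloid cells binned by the C1q UMIs per 1000000 UMIs of the cell, pooled over libraries; the dashed line is the limit of 1000 per 1000000 that separates C1q-low (left) from C1q-high cells. *Il1b* falls from 7472 to 675 CPM and *Folr2* rises from 7.86 to 224 CPM from the first to the last bin.

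Against the 556 cells that the authors labelled DC (dendritic cells), 405 of 7738 genes (5.23%) were 2-fold higher and 200 (2.58%) 2-fold lower in C1q-low cells in each library, which is again a description, since labels and rule both rest on these counts. *Lyz2* was at 6119, 6347, 7072 and 6432 CPM in C1q-low cells and 425, 600.4, 581 and 522 CPM in the DC label, and *Cebpb* at 1659, 2263, 2134 and 2387 against 206, 283, 151 and 318 CPM. All 4 markers were 2-fold higher in each library, by a pooled log2 ratio of 1.28 for *Ly6c2*, 1.85 for *Il1b*, 2.21 for *Plaur* and 4.50 for *S100a8*. *H2-Aa*, an MHC class II chain, was at 1587, 2126, 2123 and 2193 against 4531, 5819, 7059 and 5756 CPM, 2-fold lower in each library. Of the 15 genes named as higher than in C1q-high cells, 10 were also 2-fold higher than in the DC label in each library, and *Dmkn*, *Mcemp1*, *Gpr141*, *Ifitm6* and *Il1r2* were not. The 15 were picked partly by their C1q-low level, which this comparison uses again, so the 10 add no separate support. *Dmkn* was at 103, 62.8, 73.7 and 35.5 against 6.09, 18.2, 98.0 and 150 CPM, higher in M1 and M2 and lower in M5 and M6. *Gpr141* was at 90.3 against 84.1 CPM pooled. *Il1r2* was lower than in the DC label in each library, at 129.8, 119.5, 107 and 131 against 169, 152, 216 and 195 CPM. Of 6 conventional dendritic cell genes that passed against C1q-high cells, 1 was 2-fold higher in each library, *Cd209a* at 49.9, 44.4, 23.0 and 7.18 against 12.3, 6.69, 7.93 and 1.61 CPM, and 63 C1q-low cells held all of its 570 UMIs. Of 3 plasmacytoid dendritic cell genes that passed none was 2-fold different in each library.

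Transcripts of other cells were present in the class. T cell genes summed to 531 to 1204 CPM in C1q-low and 757 to 1204 CPM in C1q-high cells of the libraries, and NK cell genes to 1044 to 2314 against 1873 to 3513 CPM; none of the 8 and 6 genes was 2-fold different in each library. After thinning, 43.3% of C1q-low cells carried 2 or more UMIs of the T, NK, B and stromal cell lists together, against 56.5% of C1q-high cells. *Ighm* was the 1 B cell gene that passed and was lower in each library, at 26.5 against 83.6 CPM pooled. Of 5 stromal genes and 1 endothelial gene that passed none was 2-fold different in each library. Whether free RNA or doublets brought these UMIs was not tested.

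Mast cell transcripts remained despite the *Mcpt4* limit. The 8 mast cell genes summed to 57.5 to 500.4 CPM in C1q-low and 14.7 to 49.8 CPM in C1q-high cells, and *Cpa3*, a mast cell carboxypeptidase, was the 1 of 4 passing genes that was 2-fold higher in each library, at 109, 1.76, 68.1 and 9.20 against 4.02, 0, 0.33 and 3.77 CPM. Its 912 UMIs came from 55 cells, and 1668 of the 1723 cells had no *Mcpt4* UMI. The 4 basophil genes, none of which passed, summed to 32.2 CPM against 0.866 CPM, and 1.63% of thinned C1q-low cells carried 2 or more of their UMIs. Without cells that held 2 or more mast cell or basophil UMIs, 62 genes were higher and 47 lower, against 63 and 46 (the 3 C1q genes included). Eosinophil genes summed to 3.19 CPM, with the defining genes *Epx* and *Prg2* at 0, and erythrocyte genes to 1.15 CPM.

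The Myeloid label itself rests on these transcripts, so its markers are a description: *Lyz2* was seen in 81.6% of thinned C1q-low cells, 96.4% of C1q-high cells, 38.2% of the DC label and 566 of 3545 cells of T cell EFF. The neutrophil list, at 2 or more UMIs, was seen in 51.6% of C1q-low (49.2 to 54.1%), 25.7% of C1q-high, 10.4% of DC and 4.34% of T cell EFF cells. Leaving out M6 lowered this list's share in C1q-low cells to 46.7%. The monocyte list was seen in 75.1% of C1q-low cells, but also in 62.4% of T cell EFF, whose own *Ly6c2* and *Plac8* it counts, and that share is therefore no measure of monocytes.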

How the data were processed

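Single-cell 3′ libraries were counted by the authors with Cell Ranger 3.0.2 on GRCm38 (mm10), and the deposited values used here are raw UMI counts per gene and cell, with the authors' cell labels, which came from correlation with ImmGen profiles. No removal of doublets or free RNA is stated in the sources used here, and no doublet caller was run. The 4 libraries match no sample label, so they were put in no group and 0 other columns of per-sample values were left aside. UMIs were summed per class and library and expressed as CPM (pseudocount 1), and genes needed 10 CPM in the C1q-low and C1q-high (or C1q-low and DC) cells pooled. A gene was called at 2-fold in the same direction in each of the 4 libraries. Named genes were, in each direction, the 15 with the largest least difference among genes of at least 50 CPM in the higher class. Also named were the most abundant members of the gene lists and those that were called. Some of these were picked after their values were seen. The members and lists were chosen with earlier results of these data known. Shares of cells carrying a gene or list came from cells thinned to 2000 UMIs unless stated, with exact 95% binomial intervals. No test across samples was possible. Alternatives changed the C1q limit, the pseudocount, the expression limit, the weighting of cells, the thinning depth and the cells kept. Calculations used Python 3.11.15, numpy 2.4.6, scipy 1.17.1, pandas 2.3.3 and matplotlib 3.10.9, and the counting steps were tested on simulated data. Gene coordinates are from GENCODE M21, and promoters from RefSeq.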

Additional observations from a re-analysis of the deposited data

How the results depend on the processing

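Of 132 recomputed values 94 stayed within 1.5 times the original (counts of genes), within the range of the libraries (log2 ratios) or within the 95% interval (shares), which still allowed the count higher than in the DC label to go from 405 to 599. All 48 recomputed pooled log2 ratios of the 4 markers were above 0. The C1q-low share of Myeloid cells, 64.3%, became 60.5% at a C1q limit of 0.0005 and 68.8% at 0.002. It was 66.9% without cells over the mitochondrial limit and 73.0% without cells holding 2 or more lymphocyte or stromal UMIs after thinning. The last alternative also left out cells under 2000 UMIs. Genes higher in C1q-low cells, 63, became 38 with a pseudocount of 10 and 123 with each cell weighted equally. They became 102 without the cells holding 2 or more lymphocyte or stromal UMIs. Genes lower, 46, became 29, 79 with equal weights and 78 with no expression limit. With equal weights the log2 ratio was 1.66 for *Plaur* and 2.10 for *Il1b*. Without the cells holding 2 or more lymphocyte or stromal UMIs it was 2.33 for *Ly6c2* and 2.13 for *Il1b*. The shares of cells with 2 or more neutrophil, monocyte and lymphocyte or stromal UMIs were 36.7%, 58.8% and 30.6% at 1000 UMIs, 65.8%, 90.2% and 57.9% at 4000, 83.3%, 88.4% and 68.9% unthinned, 71.4%, 86.0% and 66.2% from 1 UMI on, and 27.3%, 49.8% and 26.1% from 5 UMIs on. The monocyte share was 79.6% under the mitochondrial limit, and the neutrophil share 55.3% without the cells holding 2 or more lymphocyte or stromal UMIs. The cause of these shifts was not tested. Leaving out each library in turn gave 66 to 98 genes higher (98 without M6), 48 to 63 lower and 419 to 523 higher than in the DC label, with only 3 libraries left to pass. It gave log2 ratios of 1.76 to 1.86 for *Il1b*, 1.37 to 1.74 for *Ly6c2*, 1.37 to 1.48 for *Plaur* and 1.25 to 1.64 for *S100a8*, a C1q-low share of 59.4 to 67.5%, and list shares of 42.4 to 45.5% (lymphocyte or stromal), 72.9 to 80.8% (monocyte) and 46.7 to 53.9% (neutrophil). Leaving out cells with 2 or more mast cell or basophil UMIs was an alternative chosen after seeing the data. It gave 62 genes higher, 47 lower and 408 higher than in the DC label. No pairing of libraries by treatment was possible, because the labels put the 4 libraries in no treatment group. Calls compared the C1q classes within each library, while ratios, medians and bins given as pooled did not. Cells under 2000 UMIs, 67 of the class, are in no share taken after thinning to 2000 UMIs.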
